A study of Mus musculus with 6 samples.

Results

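Rbpms and Rbpms2 encode a pair of closely related RNA-binding proteins, and their transcripts were followed in blood stem and progenitor cells of mice with and without Spred1. The array held 4 probes under these names, 3 for Rbpms and 1 for Rbpms2, among 55681 probes under 34650 gene names. The members were found as all probes other than controls whose gene name was Rbpms or Rbpms2, and the probes were kept apart. Rbpms2 had been picked for its lower signal in cells lacking Spred1 and Rbpms as its relative. The signal differences between the genotypes are therefore a description of these arrays, and no test is given for them.

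Bone marrow cells were sorted as CD48-negative, c-Kit-positive, Sca-1-positive and negative for lineage markers, which selects for blood stem cells and the progenitors next to them. They came from wild-type mice (WT, 3 arrays) and from mice labelled Spred1 KO (KO, 3 arrays), all of strain C57BL/6, with no treatment named. The Spred1 protein restrains the Ras-ERK pathway. The age and sex of the mice, the deleted part of Spred1, whether it was lost in all cells or only in blood, and whether an array stands for 1 mouse or several are not given in the sources used here. The spread between arrays may therefore be technical in part.

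Proteins of the Rbpms family carry 1 RNA recognition motif, pair with each other, and bind RNA at spaced CAC trinucleotides. In smooth muscle Rbpms is known to steer alternative splicing, and it can bind Smad proteins, which carry TGF-beta signals to the nucleus. Rbpms2 is known from smooth muscle of the gut, where it holds back differentiation and affects BMP signalling through Noggin. Regulators of RNA also act in blood stem cells, of which the translational regulator Msi2 is a well studied case.

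The probes decide which transcripts each value speaks for, so the first 30 of the 60 bases of each are shown with their mm9 positions, written 5′ to 3′ as the files give them. The sequence on the first line, at chr8:34893546-34893575 on the minus strand, belongs to the Rbpms probe A_51_P350332. The following line, at chr8:34893885-34893914 on the minus strand, is from the Rbpms probe A_55_P1968231, and both probes are annotated to transcript variant 1. The next, at chr8:34914544-34914573 on the minus strand, is from the Rbpms probe A_55_P2097448, annotated to transcript variant 3. The last, at chr9:65508259-65508288 on the plus strand, is from A_55_P2168667, the 1 probe of Rbpms2. No base is in capitals because no part was singled out.
A_51_P350332: ctctcctgctcctcaaaaaggagctatgta
A_55_P1968231: aaccttatatttaaggggagggaccttagt
A_55_P2097448: tttgtcacatatcaacctactgcagaccag
A_55_P2168667: ctgttgtaattggtgaccctgtgagaatgt

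The whole Rbpms2 probe spans 65508259 to 65508318 on chromosome 9, and 35% of its bases are G or C. The Rbpms probes span 34893516 to 34893575, 34893855 to 34893914 and 34914514 to 34914573 on chromosome 8 and hold 43.3% to 45% G and C. The variant 3 probe lies 20.6 kb from the nearer of the variant 1 probes, which are themselves 279 bases apart. The longest run of bases that the Rbpms2 probe shares with any Rbpms probe is 5, and no other probe on the array shares a run of 20 bases with any of the 4. The relatives were thus read by separate sequences. Whether a probe lies in coding sequence or a UTR was not determined, since no mm9 annotation was used here.

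The arrays were alike in most transcripts. Any pair of arrays had a Pearson correlation of 0.988 to 0.995 across genes (genes are no replicates), and 96.6% of 19611 genes differed by less than 1.5-fold between the genotypes. Both positive gate genes, Kit and Ly6a (Sca-1), were well above background on every array, and so was Cd48, the surface protein of which the sorted cells were negative. Cd48 stood at -0.19 in WT and -0.07 in KO on the log2 scale described below. All 13 neutrophil markers listed were well above background on every array as well. WT replicate 1 stood apart from the other arrays: its summed neutrophil marker signal was 104, in units of the array's 75th percentile, against 345 to 538 on the others. On the first principal component of all genes (36% of the variance) it had a score of -35.9, where WT replicates 2 and 3 had -6.49 and -5.47 and the KO arrays had 4.38 to 23.3. Replicates 1 and 2 of both genotypes were on slide 1, and replicate 3 of both on slide 2.

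Rbpms2 signal was lower on every KO array than on any WT array. The processed intensity of its probe, in linear units of the scanner, was 1152, 1102 and 958 on WT replicates 1, 2 and 3. On KO replicates 1, 2 and 3 it was 371.6, 506.4 and 305.9. The genotypes did not overlap, and the brightest KO spot was far dimmer than the dimmest WT spot. The spot was well above background on all 6 arrays, so both genotypes have a measured level and not a bound.

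**Figure D1:**
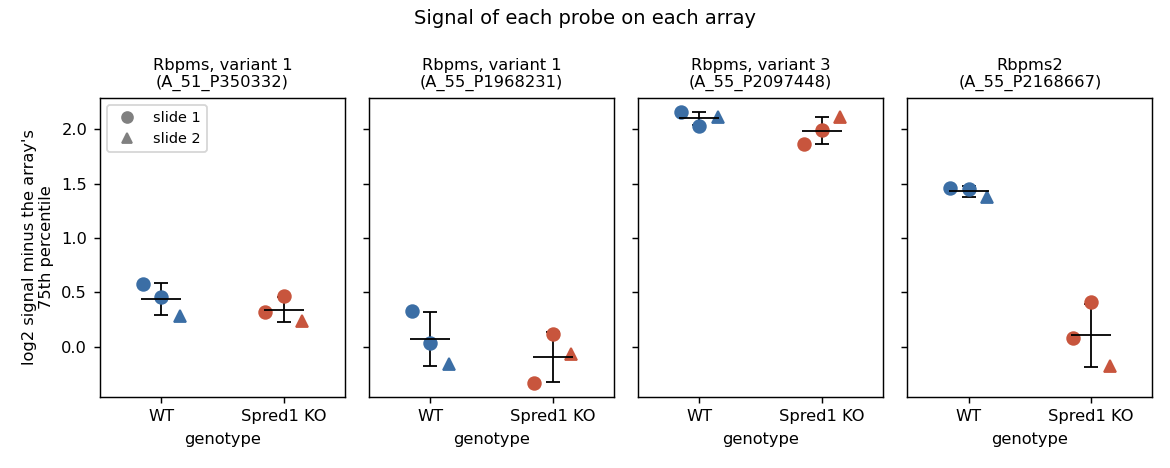
Signal of the 3 Rbpms probes and the Rbpms2 probe on each array, as log2 intensity minus the array's 75th percentile, for WT and Spred1 KO; circles are arrays of slide 1, triangles of slide 2, and black bars are the mean ± SD (n = 3). The Rbpms2 values lie between 1.38 and 1.47 in WT and between -0.18 and 0.41 in KO, while the genotypes overlap for each Rbpms probe.

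To compare arrays, each log2 intensity was set against the 75th percentile of its array, so that a value of 0 is a signal at that percentile. On this scale Rbpms2 measured 1.47, 1.45 and 1.38 in WT and 0.08, 0.41 and -0.18 in KO. The means were 1.43 ± 0.048 (SD, n = 3) in WT and 0.11 ± 0.292 (SD, n = 3) in KO. The difference, KO minus WT, was -1.32 ± 0.153 (SE of the limma fit across 27809 probes), a signal 39.9% of that in WT. Relative to the WT mean, the KO values ranged from 32.9% to 49.3% and the WT values from 96.3% to 103%. The gap between the lowest WT and the highest KO array was 0.97 on the log2 scale. In bulk RNA, fewer cells with the transcript and less transcript per cell cannot be told apart.

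The SD of Rbpms2 over the KO arrays was larger than that over the WT arrays, a difference that was not tested. KO replicate 2 had the highest Rbpms2 signal of the KO arrays and KO replicate 3 the lowest. The scanner software assigned each Rbpms2 spot an error of 10% to 10.1% of its signal. With WT replicate 1, the array that stood apart, left out, the difference was -1.31 ± 0.183 SE. It was -1.21 ± 0.159 SE within slide 1, with 2 arrays of each genotype, and -1.55 within slide 2, with 1 array of each.

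Rbpms, the better known relative, showed no separation of the genotypes at any of its 3 probes. At the variant 3 probe, A_55_P2097448, the intensity was 1861, 1657 and 1600 on WT replicates 1, 2 and 3 and 1274, 1517 and 1496 on KO replicates 1, 2 and 3. Scaled to the 75th percentile, the values were 2.16, 2.04 and 2.12 in WT and 1.86, 1.99 and 2.11 in KO. KO replicate 3 lay within the WT range and the other KO arrays just below it. The difference was -0.11 ± 0.0998 SE, a signal 92.4% of that in WT, with means of 2.10 ± 0.0619 (SD, n = 3) in WT and 1.99 ± 0.126 (SD, n = 3) in KO.

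The variant 1 probes of Rbpms behaved alike. Probe A_51_P350332 had intensities of 622.6, 555.3 and 449 in WT and 436.1, 526.4 and 407.5 in KO, with a difference of -0.10 ± 0.114 SE on the scaled log2 values. Probe A_55_P1968231 had intensities of 525.3, 413.1 and 330.2 in WT and 277.7, 414.6 and 330.2 in KO, with a difference of -0.16 ± 0.169 SE. WT replicate 1 gave the highest value at both probes. Without it the differences were -0.03 ± 0.12 SE and -0.03 ± 0.162 SE, and the variant 3 probe then stood at -0.09 ± 0.116 SE. All 3 Rbpms probes were well above background on all 6 arrays.

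The probes of Rbpms can be read against each other only through their pattern over the arrays. The variant 1 probes, 279 bases apart, had a Pearson correlation of 0.83 over the 6 arrays. The variant 3 probe correlated with them at 0.17 and 0.61. Rbpms2 correlated with the 3 Rbpms probes at 0.47 to 0.57 over the 6 arrays. After the genotype means were taken off, its correlations were 0.72 and 0.41 with the variant 1 probes and -0.38 with the variant 3 probe. These correlations rest on 6 arrays that share labelling and scanning, and they are given as a description.

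**Figure D2:**
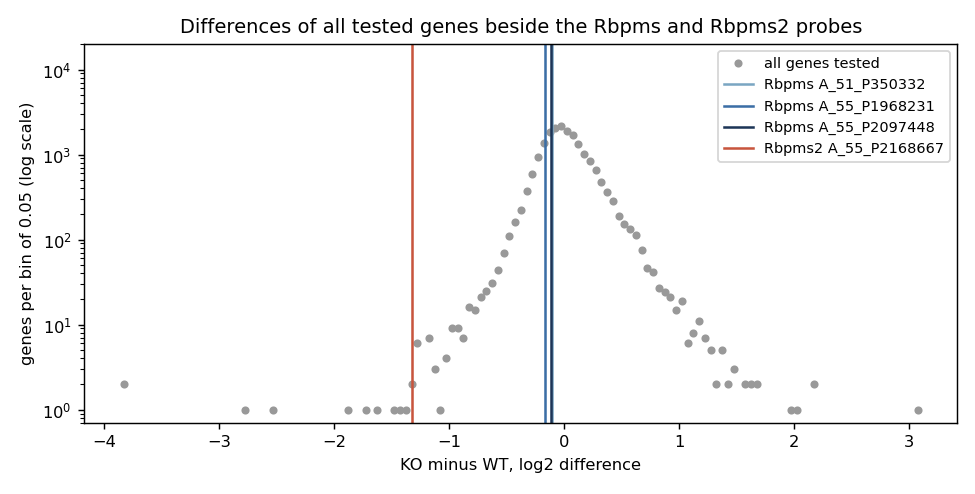
Number of genes at each log2 difference, KO minus WT, in bins of 0.05 on a logarithmic count axis (grey points, 19611 genes), with vertical lines at the differences of the 3 Rbpms probes and the Rbpms2 probe. The Rbpms lines, at -0.10 to -0.16, lie in the body of the distribution and the Rbpms2 line, at -1.32, in its lower tail.

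Set among all genes, Rbpms2 had one of the lower differences and Rbpms did not. Only 11 of 19611 genes (0.0561%) had a difference below that of Rbpms2, while 5317 (27.1%) lay below that of Rbpms, read by its variant 3 probe. The middle 90% of genes lay between -0.32 and 0.44, with a median of -0.0085. Over all genes, limma with Benjamini-Hochberg adjustment called 2 higher in KO (0.0102%) and 2 lower (0.0102%), and neither Rbpms nor Rbpms2 was among these 4. The arrays of one genotype lay wholly below those of the other in KO for 10.2% of genes, Rbpms2 included, and wholly above for 9.36%. Nothing is read from these shares for Rbpms2, which was picked on this contrast.

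**Figure D3:**
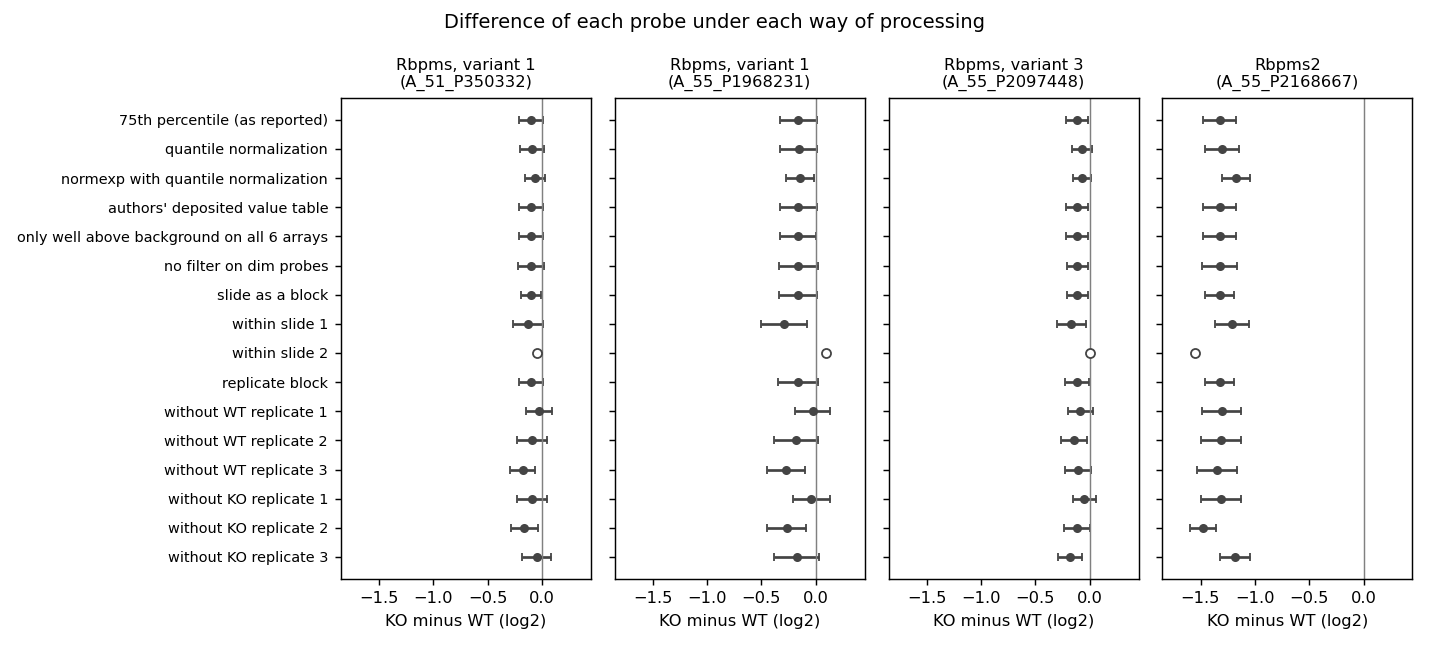
KO minus WT on the log2 scale for each probe under each way of processing and with each array left out, with bars of 1 SE; open circles (within slide 2) have 1 array of each genotype and no error. The Rbpms2 values stay between -1.55 and -1.17, and the Rbpms values between -0.29 and 0.10.

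The direction for Rbpms2 did not turn under any way of processing that was run. Since Rbpms2 was picked on this contrast and every KO array lay below every WT array, leaving out arrays or splitting by slide could not turn it. Quantile normalization gave -1.30 ± 0.155 SE, normexp background correction with quantile normalization -1.17 ± 0.125 SE, and the authors' deposited value table -1.32 ± 0.151 SE. Leaving out each array in turn gave -1.48 to -1.18. The lowest of these came without KO replicate 2 and the highest without KO replicate 3. For Rbpms the variant 1 probe A_55_P1968231 measured -0.29 ± 0.214 SE within slide 1 and 0.10 within slide 2, so its direction was opposite on the slides. The variant 3 probe stood at -0.17 ± 0.132 SE within slide 1, and on slide 2 its values were 2.115 in WT and 2.114 in KO.

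Genes around Rbpms2 on chromosome 9 had smaller differences, as did most genes tested. Of 47 gene names with a probe within 1 Mb of it, 38 were measured, and limma called 0 of them at an adjusted p under 0.05 (0.0204% of all genes, both directions). At an unadjusted limma p under 0.05, 4 were higher in KO (10.5%) and 2 lower (5.26%), where the shares over all genes were 6.96% and 5.24%. The arrays did not overlap for 7 higher (18.4%) and 5 lower (13.2%) neighbours, against 9.36% and 10.2% of all genes. Their median difference was -0.041. The nearest measured genes were Gm10144, a predicted gene 60.3 kb away, at -0.09 ± 0.0954 SE, and on the other side Oaz2, an antizyme that curbs polyamine synthesis, 27.5 kb away, at 0.03 ± 0.0854 SE. Both differences were within about 1 SE of 0.

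The 6 neighbours of Rbpms2 below an unadjusted p of 0.05 lay in both directions. Higher values in KO were measured for Snx22, a sorting nexin (0.50 ± 0.135 SE, limma adjusted p = 0.365), Pif1, a DNA helicase (0.31 ± 0.125 SE, adjusted p = 0.405), 2810417H13Rik, the PCNA-associated factor now named Pclaf (0.28 ± 0.0944 SE, adjusted p = 0.38), and Igdcc3, of the immunoglobulin superfamily (0.27 ± 0.111 SE, adjusted p = 0.407). Lower values were measured for Rab11a, a GTPase of recycling endosomes (-0.28 ± 0.0928 SE, adjusted p = 0.374), and Ptplad1, an enzyme of fatty acid elongation now named Hacd3 (-0.24 ± 0.101 SE, adjusted p = 0.409). None of the 38 measured neighbours had a difference as low as that of Rbpms2. Only 0.0561% of all genes lay below Rbpms2, which was picked for its low signal, so nothing is read from this.

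Around Rbpms, 24 of 37 gene names within 1 Mb were measured, and limma called 0 of them. At an unadjusted p under 0.05, 3 were higher (12.5%) and 1 lower (4.17%), against 6.96% and 5.24% of all genes. The arrays did not overlap for 3 higher and 3 lower (12.5% each), against 9.36% and 10.2%. The median difference was 0.075. The lower one by unadjusted p was Purg, a relative of the purine-rich element binding proteins (-0.25 ± 0.103 SE, limma adjusted p = 0.408). The 3 higher were transcripts without a gene symbol, at 0.23 to 0.45. The nearest neighbour, 6.49 kb away, was Gtf2e2, a subunit of the general transcription factor TFIIE, at -0.22 ± 0.0976 SE (adjusted p = 0.428). The nearest measured probe on the other side, 118 kb away, had no gene name and measured -0.09 ± 0.101 SE.

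**Figure D4:**
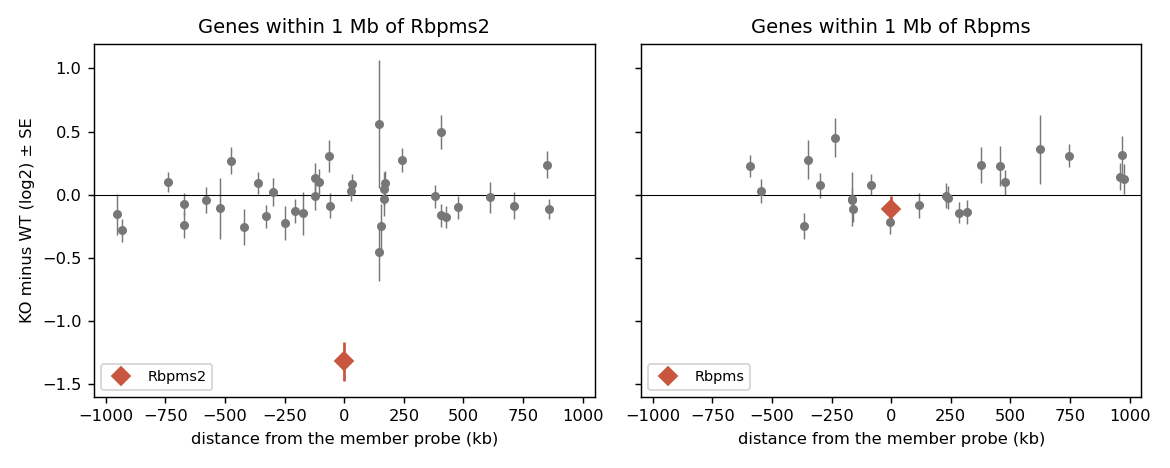
KO minus WT on the log2 scale (± SE) for genes within 1 Mb of the Rbpms2 probe (left) and the Rbpms probes (right), against distance in kb; red diamonds are Rbpms2 and the variant 3 probe of Rbpms. The grey neighbours of Rbpms2 lie between -0.46 and 0.56, above Rbpms2 at -1.32, which nearly all genes tested exceed.

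Other RNA-binding proteins of tissue-specific or developmental roles, such as the Rbfox, Mbnl, Celf, Elavl and Musashi families, had differences spread about the median of all genes. Of 58 listed, 45 were measured and limma called 0 at an adjusted p under 0.05. At an unadjusted p under 0.05, 3 were higher (6.67%) and 1 lower (2.22%), against 6.96% and 5.24% of all genes. The median difference of the list was 0.013 against -0.0085 over all genes. Rbm24, a splicing regulator of muscle and 1 of the 3 higher, had -3.66, -4.20 and -4.32 in WT and -3.42, -3.44 and -2.98 in KO. Its signal cleared the background threshold on 1 WT array and 3 KO arrays, so it was measured through its KO values alone and its direction carries no weight. Rbm47, a cofactor of RNA editing, measured 0.29 ± 0.108 SE and Igf2bp2, which stabilises transcripts, 0.36 ± 0.15 SE (adjusted p of 0.393 and 0.408). Rbm38, a p53 target that controls transcript stability, measured -0.29 ± 0.109 SE (adjusted p = 0.394). The arrays did not overlap for 2 higher genes of the list, Rbm24 and Rbm47 (4.44%), and 1 lower, Rbm38 (2.22%). The shares over all genes were 9.36% and 10.2%.

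General splicing factors, namely SR proteins, hnRNPs and factors of the 3′ splice site, were measured for all 36 genes listed. Limma called 0 of them (0.0204% of all genes, both directions). At an unadjusted p under 0.05, 0 were higher and 3 lower (8.33%), against 6.96% and 5.24% of all genes. Their median was -0.12, with 29 of 36 (80.6%) below 0 against 51.7% of all genes. The KO arrays lay wholly below the WT arrays for 6 (16.7%, against 10.2%) and wholly above for 1 (2.78%, against 9.36%). The lowest was Hnrnpll, which controls splicing in lymphocytes, at -0.51 ± 0.16 SE (limma adjusted p = 0.372). Its values were 2.37, 1.95 and 2.17 in WT and 1.81, 1.78 and 1.37 in KO, without overlap. U2af2, which recognises the polypyrimidine tract, measured -0.30 ± 0.102 SE, and the SR protein genes Srsf7 and Srsf9 measured -0.24 ± 0.0959 SE and -0.21 ± 0.0964 SE, with adjusted p of 0.379 to 0.432 for the 3.

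**Figure D5:**
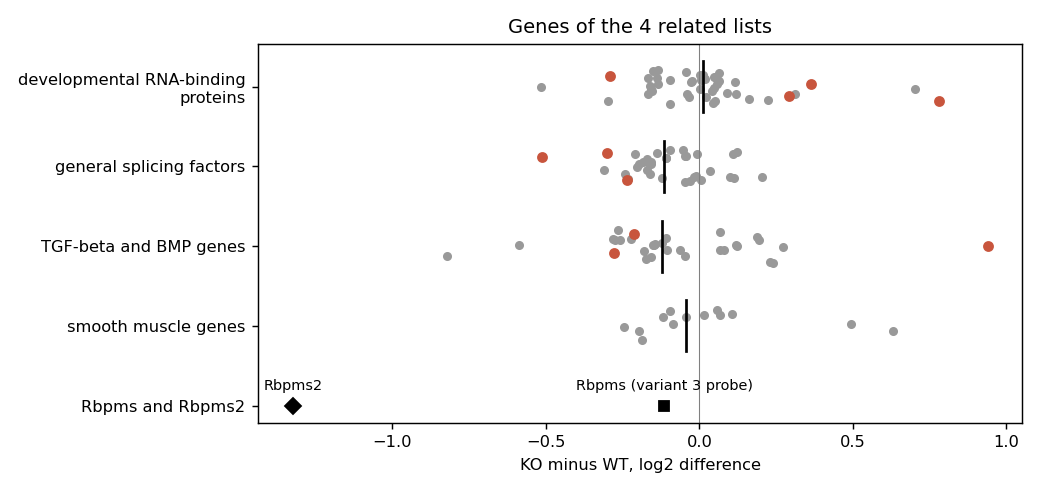
KO minus WT on the log2 scale for each measured gene of the 4 related lists (points, spread vertically only for legibility), with vertical bars at the list medians; red points have an unadjusted limma p under 0.05, and none passed after adjustment. Every listed gene lies between -0.82 and 0.94, to the right of Rbpms2 at -1.32, which nearly all genes tested exceed.

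Among genes of TGF-beta and BMP signalling, 31 of 36 were measured and limma called 0. At an unadjusted p under 0.05, 1 was higher (3.23%) and 2 lower (6.45%), against 6.96% and 5.24% of all genes. The median was -0.12, with 20 of 31 (64.5%) below 0 against 51.7% of all genes. The KO arrays lay wholly below the WT arrays for 5 (16.1%, against 10.2%) and wholly above for 1 (3.23%, against 9.36%). The ligand gene Bmp2 measured 0.94 ± 0.322 SE (limma adjusted p = 0.379), with -3.26, -2.65 and -3.18 in WT and -2.76, -1.54 and -1.96 in KO, where the genotypes overlapped. The receptor genes Acvr1 and Acvr1b measured -0.28 ± 0.0907 SE and -0.26 ± 0.123 SE, and Smurf1, a ubiquitin ligase that acts on Smad proteins, measured -0.21 ± 0.0834 SE, with adjusted p of 0.374 to 0.436 for the 3.

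Smooth muscle genes, including transcripts that Rbpms is known to splice there, were in part too dim to be measured. Of 21 listed, 13 were measured, and limma called 0, with a median of -0.043. At an unadjusted p under 0.05 there were 0, against 6.96% higher and 5.24% lower over all genes. The vinculin gene Vcl measured -0.24 ± 0.172 SE (limma adjusted p = 0.557) and the alpha-actinin gene Actn1 -0.19 ± 0.14 SE (adjusted p = 0.576). The smooth muscle actin gene Acta2 cleared the background threshold on 0 of 3 WT arrays and on 3 KO arrays, and its values overlapped between the genotypes. These values are levels of whole probes and say nothing of splicing.

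Over the 4 lists, 125 of 151 genes were measured, 4 (3.2%) were higher and 6 (4.8%) lower at an unadjusted limma p under 0.05, against 6.96% and 5.24% of all genes. Without overlap between the genotypes, 4 (3.2%) were higher and 13 (10.4%) lower, against 9.36% and 10.2%. The shares of higher genes were below those of all genes, and the shares of lower genes were near them. No listed gene had a limma adjusted p under 0.365, where 0.0204% of all genes had one under 0.05. The unadjusted counts hung on single arrays. They were 2 higher and 3 lower without WT replicate 1, and 6 higher and 9 lower without WT replicate 2. The higher count was 1 without WT replicate 3 or KO replicate 3. The lower count was 2 without KO replicate 1 or KO replicate 3 and 10 without KO replicate 2.

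Cells of other types that could carry Rbpms family transcripts were looked for by their markers. Of 14 markers of mesenchymal stroma and pericytes, 5 to 6 were well above background in WT samples and 7 to 8 in KO samples. Their summed signal, in units of the 75th percentile, was 7.45 to 9.41 in WT and 9.12 to 11.8 in KO. Lepr, Pdgfrb, Col1a2, Cxcl12 and Tagln cleared the background threshold on all 6 arrays, and their differences were 0.31, 0.35, 0.17, 0.54 and 0.01. Acta2, the last of the 6 measured markers, cleared the threshold on KO arrays alone, so its direction carries no weight. The list median of 0.33 includes it. Limma called 0 of the 6, also at an unadjusted p under 0.05. Pdgfra, Col3a1, Lum, Rgs5, Cspg4 and Myh11 were not clearly above background in any sample. Of 12 endothelial markers 9 to 10 were well above background, with sums of 95.8 to 108 in WT and 99.7 to 119 in KO, but Cdh5, which defines endothelium, and Sox17 stayed near background throughout. Megakaryocyte markers, 11 of 12 of them well above background, summed to 28.6 to 30.1 in WT and 25.8 to 32.4 in KO. Stem cell markers, 10 of 10 well above background, summed to 219 to 238 in WT and 212 to 237 in KO. The sums overlapped between the genotypes for all 4 lists. The counts of stromal markers well above background did not overlap, but they include Acta2, so nothing is read from that. For mature blood cells the sums overlapped too: erythroid 80.3 to 102 in WT and 79.6 to 84.7 in KO, monocyte 8.47 to 13.3 and 10.5 to 13.7, B cell 11.6 to 13.7 and 12.2 to 14.7, and T and NK cell 14.8 to 17.3 and 15.7 to 18.7. All these sums are of linear signal and weigh the brightest markers most, such as Lepr for stroma and Egfl7 for endothelium (2.54 and 6.05 in WT, log2). The part of any of these cells in the Rbpms2 difference was not tested.

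Transcripts with the pattern most like that of Rbpms2 over the 6 arrays were Nqo1, a quinone reductase (r = 0.997), Phldb2, a protein of the cell cortex (r = 0.997), Hibch, an enzyme of valine breakdown (r = 0.993), Nrtn, the growth factor neurturin (r = 0.992), and Aldh2, the mitochondrial aldehyde dehydrogenase (r = 0.992). Pearson correlation over 19606 genes with a value on every array was the measure. The Rbpms2 pattern is mostly its genotype difference, so that genes chosen for likeness to it differ in the same direction by construction. Their differences were smaller: Phldb2 at -0.61, Nqo1 at -0.46, Aldh2 at -0.32, Hibch at -0.19 and Nrtn at -0.17 on the log2 scale, with limma adjusted p of 0.301 to 0.421. Rbpms stood at rank 5380 by this measure (r = 0.477). These are the highest of many correlations over 6 arrays that share labelling and scanning, and they were not tested.

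After the genotype means were taken off, so that only the spread within each genotype counted, the genes most like Rbpms2 were Xpot, the exporter of tRNA (r = 0.998), Hmgn3, a nucleosome binding protein (r = 0.997), Scrn1, Nptn and Tmed4 (r = 0.996 to 0.997). None of them was among the 5 over the 6 arrays. Rbpms2 varied mostly among the KO arrays (SD 0.292, against 0.048 in WT), so those arrays weigh most in these values of r. For Rbpms, read by its variant 3 probe, the most alike over the 6 arrays were Eng, the TGF-beta co-receptor endoglin (r = 0.996), Raver1, an RNA-binding partner of Ptbp1 (r = 0.982), BC034090 (r = 0.982), Nrbp1 (r = 0.981) and Strn4 (r = 0.979). Within genotypes they were Nrbp1, Espn, Tsku, Pxmp2 and Eng (r = 0.9958 to 0.9997), so that Nrbp1 and Eng were named both times. Both rankings use the spread within genotypes, so names that recur are not separate findings. Eng itself measured -0.15 between genotypes and Nrbp1 -0.07. All these correlations, too, are the highest of many over 6 arrays and were not tested.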

How the data were processed

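RNA of sorted bone marrow cells was hybridised to 6 Agilent 1-colour (Cy3) arrays, 3 per genotype. The deposited scanner files hold intensity on a linear scale, from Agilent's Feature Extraction software (10.7.3.1 in the submitters' processing notes). Background and trends across the slide were corrected there and dim spots given surrogate values, per the file headers. The authors' deposited value table is that intensity over an array-wide constant of 304 to 368.

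Control spots and 92 to 155 outlier spots per array were left out, and no spot was saturated. Values are log2 intensities minus the array's 75th percentile (346 to 417). Each gene was read by its probe of highest mean, kept if well above background on all 3 arrays of a genotype. The comparison of KO with WT used limma 3.58.1 (R 4.3.3) and Benjamini-Hochberg adjustment at 0.05, and was tested on simulated data. All listed names were found on the array. Signals rest on single spots and 3 arrays per genotype, which limits their precision.

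The members and lists were chosen with earlier results of these data known. Named genes are the 4 of smallest p per related list, the nearest neighbours and those below an unadjusted p of 0.05, and the 5 most alike in pattern. 1 gene that this rule names is not reported here. Alternatives were other normalizations and filters, slide and replicate blocks, and leaving out each array.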

Additional observations from a re-analysis of the deposited data

How the results depend on the processing

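The Rbpms2 difference kept its sign in all 15 alternatives run. With every KO array below every WT array, runs that left out or grouped arrays could not turn that sign. Other filters and the authors' table left the difference unchanged. The Rbpms2 difference moved by more than the SE of the reported fit (0.153) only within slide 2 (-1.55, 1 array per genotype, no test). Within that slide the Rbpms probe A_55_P1968231 reversed to 0.096 and A_55_P2097448 moved to 0. With arrays left out in turn, Rbpms2 ran from -1.475 to -1.183, and the Rbpms probes from -0.179 to -0.031 (A_51_P350332), -0.276 to -0.029 (A_55_P1968231) and -0.177 to -0.05 (A_55_P2097448). No gene of the related lists or beside the members passed the adjusted threshold in any of 14 alternatives with a test. Over all genes, 2 higher and 2 lower calls became 1 and 0 under quantile normalization, 5 and 5 under normexp, 1 and 0 with only genes that cleared background on all 6 arrays, 0 and 0 without a filter, 0 and 0 within slide 1, and 2 and 1 with the slide as a block. With arrays left out in turn the higher calls numbered 0 to 1 and the lower calls 0 to 3. The causes were not tested. With the replicate number as a block the counts were 0 and 0. Same-numbered arrays had correlations of their deviations of -0.025, 0.153 and 0.071, so the number was not taken to pair samples, and only WT replicate 2 correlated best with its own number. Single spots and 3 arrays per genotype limit the precision.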
